A study of Mus musculus with 16 samples.

Results

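The question addressed was whether loss of the DNA damage sensor Parp-2 changes the response of LSK cells to ionising radiation. LSK cells are lineage-negative, Sca1-positive, c-Kit-positive bone marrow cells, the fraction with the blood stem cells and the most primitive progenitors. The 8 LSK arrays, of 16 arrays in the series, were taken by their sample titles, and for each gene the radiation response of wild-type (WT) cells was subtracted from that of Parp-2-/- cells. This difference of differences is called the interaction below, and a positive value means that the response, irradiated minus unirradiated, was more positive in Parp-2-/- cells. The groups were LSK cells of Parp-2-/- mice collected 2.5 hours after 5 Gy of gamma radiation, LSK cells of unirradiated Parp-2-/- mice, and the same pair of groups from WT mice, all on the C57BL/6J background. Each group had 2 pools, each pool held marrow of at least 3 mice and was hybridised to 1 Affymetrix Mouse Gene 1.0 ST array, and the other 8 arrays held MP cells, the lineage-negative, Sca1-negative, c-Kit-positive myeloid progenitors, in the same groups. The pools were treated as separate samples, and a pool hides the variation between its mice.

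Poly(ADP-ribose) polymerases bind DNA breaks and build chains of ADP-ribose on nearby proteins, which brings repair factors to the lesion. PARP-1 makes most of this polymer, and PARP-2 is a second enzyme of the family that acts in single-strand break and base excision repair. In blood-forming cells, radiation breaks activate the kinases ATM and ATR and the transcription factor p53, which induces genes of cell cycle arrest, repair and apoptosis, while genes of mitosis are turned down. An interaction shows whether these programmes differed in size between genotypes, which comparing lists of responding genes does not show.

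The deposited values are log2 intensities, and all differences are in log2 units with standard errors, so that 1 unit is a 2-fold change. Parp2 itself read 6.14 and 6.77 in irradiated and 5.70 and 6.43 in unirradiated Parp-2-/- LSK pools, against 7.83 and 7.96 in irradiated and 7.52 and 7.40 in unirradiated WT LSK pools. Every Parp-2-/- pool lay below every WT pool, and the Parp2 interaction was -0.04 ± 0.36 (adjusted p = 0.984). Parp1, the gene of the main polymerase, read 7.59 and 7.77 in irradiated and 8.22 and 8.04 in unirradiated Parp-2-/- pools, against 8.20, 8.18, 8.42 and 8.26 in the WT pools in the same order. Its interaction of -0.30 ± 0.22 did not pass (adjusted p = 0.714). The sort markers fitted the LSK label: Kit lay between 8.78 and 9.46 on the LSK arrays, and the primitive and lymphoid progenitor genes Flt3, Dntt and Hlf were higher on every LSK array than on every MP array. Mecom, a stem cell gene, ranged from 4.98 to 7.23 in LSK cells and from 4.13 to 5.11 in MP cells. The lineage genes Cd3e and Ly6g lay below the array median on all 8 LSK arrays, Cd4 and Cd8a were above it on 1 array each, and Itgam on 2. Ly6a, which encodes Sca1, had no row with a single symbol. Levels below the array median, which was 4.74 to 4.92, are not shown to be above background.

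Of 22961 rows with a gene symbol, 2 (0.00871%) passed in the interaction at an adjusted p under 0.05, both with a more positive response in Parp-2-/- cells. At an unadjusted p under 0.05, 1011 rows (4.4%) had a more positive and 1176 (5.12%) a more negative response in Parp-2-/- cells, 2187 in all, where 5% of the rows tested is 1148. In the fit of the 8 LSK arrays alone, 0 rows passed (lowest adjusted p 0.381) and 1066 rows had an unadjusted p under 0.05, below those 1148. The fits differ in the spread they use. Replicate pools of LSK cells were less alike, with a pooled standard deviation of 0.333 against 0.198 in MP cells, and the 16-array fit averages the spread of both cell types. The median standard error of an interaction was 0.292 in that fit and 0.343 in LSK cells alone, and adjusted p-values of both fits are given below where a result turns on them. Leaving out 1 LSK array at a time from the 16-array fit gave between 0 calls, without pool 2 of irradiated WT cells, and 95, without pool 2 of irradiated Parp-2-/- cells. Without pool 1 of that group 40 rows passed, and without pools 1 and 2 of unirradiated WT cells 57 and 24. The same with the 8 LSK arrays alone gave 0 calls each time.

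**Figure D1:**
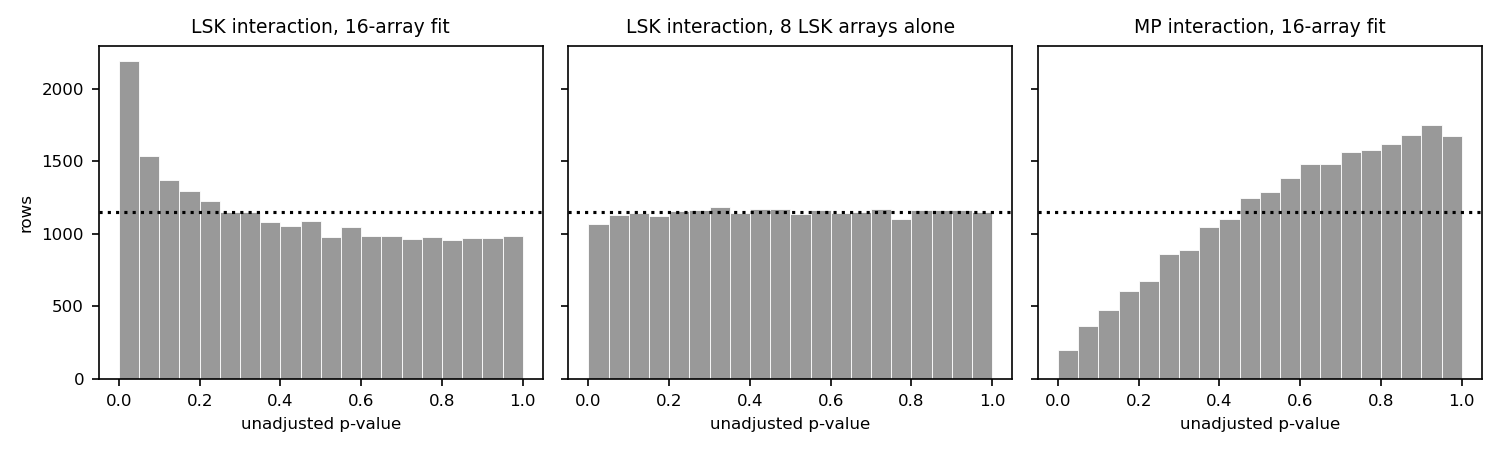
Unadjusted p-values of the interaction in 20 bins (x axis) against the number of rows (y axis), for LSK cells in the 16-array fit, for LSK cells fitted alone and for MP cells in the 16-array fit; the dotted line is the even share per bin. The lowest bin holds 2187 rows in the first panel, 1066 in the second and 199 in the third.

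Each genotype gives 4 pool-by-pool responses, each irradiated pool minus each unirradiated pool, and in 2023 rows (8.81%) all 4 Parp-2-/- responses lay above all 4 WT responses. In 1738 rows (7.57%) all 4 lay below. Among the 1011 rows with a more positive Parp-2-/- response at an unadjusted p under 0.05, 877 had responses of opposite sign in the genotypes. Over all 1011 the median response was 0.31 in Parp-2-/- and -0.42 in WT cells. Opposite signs were also found in 933 of the 1176 rows with a more negative Parp-2-/- response, and over all 1176 the median responses were -0.43 in Parp-2-/- and 0.49 in WT cells. The difference between genotypes was spread over both states: in these 1176 rows the median difference, Parp-2-/- minus WT, was -0.47 in irradiated and 0.47 in unirradiated cells. The sign and size in these rows were chosen by the same p, so these medians describe them and test nothing.

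One of the called rows is the odorant receptor gene Olfr652, which is outside the rule for naming genes and is named because it was called. It read 5.17 and 5.50 in irradiated and 4.11 and 3.79 in unirradiated Parp-2-/- pools, against 3.83 and 3.88 in irradiated and 4.35 and 4.35 in unirradiated WT pools. Only the irradiated Parp-2-/- pools reached the array median, so the size of its interaction of 1.87 ± 0.23 (adjusted p = 0.0467; 0.736 in LSK cells alone) is not measured. The other called row carries 3 gene symbols and is not named. It read 6.27 and 6.35 in irradiated and 5.60 and 5.51 in unirradiated Parp-2-/- pools, against 5.24 and 4.95 in irradiated and 6.10 and 6.15 in unirradiated WT pools. Its interaction was 1.79 ± 0.23 (adjusted p = 0.0467; 0.736 in LSK cells alone), with opposite responses in the genotypes.

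Of the named genes, the 20 with the smallest p, 10 in each direction, and separate responses did not pass, and are given as values. They were chosen by their p in these arrays, so refits that leave out 1 of the arrays give no further evidence on them. With LSK cells alone 0 of them passed. Dmac2, a factor of mitochondrial complex I assembly, read 6.91 and 7.06 in irradiated and 5.63 and 5.58 in unirradiated Parp-2-/- pools, against 5.25 and 5.66 in irradiated and 5.82 and 6.07 in unirradiated WT pools. The irradiated Parp-2-/- pools were the highest of the 8, and Dmac2 rose in Parp-2-/- cells by 1.38 ± 0.18 (adjusted p = 0.0021). Its interaction was 1.87 ± 0.25 (adjusted p = 0.0504; 0.736 in LSK cells alone). Slc19a2, a thiamine transporter, read 8.02 and 7.91 in irradiated and 3.81 and 3.31 in unirradiated Parp-2-/- pools, against 7.72 and 7.75 in irradiated and 5.59 and 4.96 in unirradiated WT pools. The genotype difference, Parp-2-/- minus WT, was 0.23 in irradiated and -1.71 in unirradiated cells (adjusted p = 0.81 and 0.051), and the unirradiated Parp-2-/- pools lay below the array median. The gene rose in both genotypes, by 4.40 in Parp-2-/- and 2.46 in WT cells (adjusted p = 3.6e-06 and 0.00024), and its interaction of 1.94 ± 0.33 is a lower bound (adjusted p = 0.0849; 0.784 in LSK cells alone).

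Ube2h, a ubiquitin-conjugating enzyme, read 6.30 and 5.99 in irradiated and 5.37 and 5.23 in unirradiated Parp-2-/- pools, against 5.61 and 5.58 in irradiated and 6.06 and 6.18 in unirradiated WT pools. Irradiated and unirradiated pools were in opposite order in the genotypes, with an interaction of 1.37 ± 0.22 (adjusted p = 0.0849), and a further Ube2h row read 2.03. Msl2, a subunit of a histone acetyltransferase complex, read 8.65 and 8.88 in irradiated and 7.34 and 7.56 in unirradiated Parp-2-/- pools, against 8.20 and 7.58 in irradiated and 8.07 and 8.44 in unirradiated WT pools. The WT states overlapped and the Parp-2-/- states did not, and the interaction was 1.68 ± 0.33 (adjusted p = 0.134). The retinol dehydrogenase gene Rdh10 (2.33 ± 0.47), the interleukin-18 receptor gene Il18r1 (2.57 ± 0.51, a lower bound), the interferon-inducible gene Ifi27l2a (2.24 ± 0.46) and Anapc11 (1.33 ± 0.26), the catalytic subunit of the anaphase-promoting complex, had adjusted p-values of 0.134 to 0.151. Bdh2 and Gprc5a completed the 10 and lay below the array median in 3 of the 4 groups, so that their sizes are not measured.

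In the other direction, Commd6, a member of the COMMD family of endosomal sorting proteins, read 5.46 and 5.66 in irradiated and 6.95 and 6.94 in unirradiated Parp-2-/- pools, against 6.58 and 6.48 in irradiated and 5.33 and 6.04 in unirradiated WT pools. Irradiated pools were lower than unirradiated ones in Parp-2-/- and higher in WT cells, with an interaction of -2.22 ± 0.31 (adjusted p = 0.051; 0.736 in LSK cells alone). Nek7, a kinase of mitosis and of the inflammasome, read 5.56 and 5.43 in irradiated and 6.68 and 6.74 in unirradiated Parp-2-/- pools, against 6.88 and 7.40 in irradiated and 5.94 and 6.58 in unirradiated WT pools. Its interaction was -2.09 ± 0.35 (adjusted p = 0.0849), and the irradiated Parp-2-/- pools were the lowest of the 8. Bmp2k, a kinase of endocytosis, read 5.52 and 5.32 in irradiated and 7.09 and 6.88 in unirradiated Parp-2-/- pools, against 6.31 and 6.51 in irradiated and 5.55 and 5.99 in unirradiated WT pools. It had an interaction of -2.20 ± 0.38 (adjusted p = 0.0864), again with opposite order in the genotypes.

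Bnip1, a SNARE protein of the endoplasmic reticulum, read 5.90 and 5.15 in irradiated and 6.82 and 6.63 in unirradiated Parp-2-/- pools, against 6.34 and 6.55 in irradiated and 5.80 and 5.41 in unirradiated WT pools (interaction -2.04 ± 0.34, adjusted p = 0.0849). Psmd13, a lid subunit of the proteasome, read 6.46 and 6.36 in irradiated and 7.81 and 7.62 in unirradiated Parp-2-/- pools, against 6.85 and 7.08 in irradiated and 7.08 and 6.71 in unirradiated WT pools. It fell in Parp-2-/- cells by 1.31 (adjusted p = 0.0025), the WT pools overlapped, and the interaction was -1.37 ± 0.25 (adjusted p = 0.103). The zinc finger genes Zfp35 (-1.79 ± 0.26), Zfp780b (-2.47 ± 0.37) and Zfp61 (-1.81 ± 0.31) had adjusted p-values of 0.0631, 0.0849 and 0.0849, the last 2 sizes being lower bounds. The histone gene H3c15 had the lowest adjusted p in LSK cells alone (0.381) and an interaction of -2.56 ± 0.44 (adjusted p = 0.0864), but only the unirradiated Parp-2-/- pools were above the array median. Fggy, which has a carbohydrate kinase domain, read -2.04 ± 0.34, a lower bound of the size, on its leading row and between -0.997 and 0.33 on 4 further rows.

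**Figure D2:**
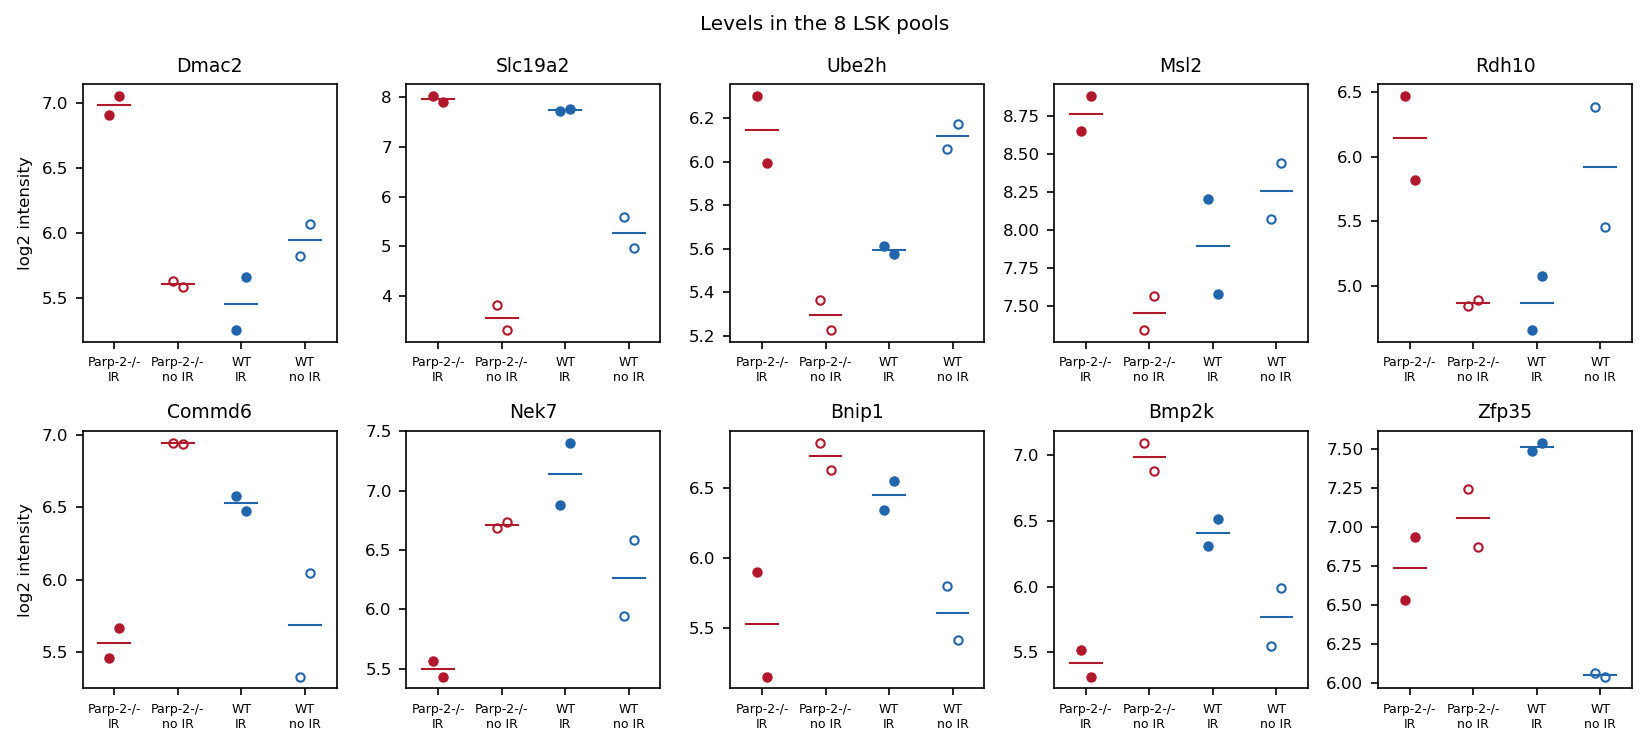
Log2 intensity (y axis) of 10 genes in each pool (points) of the 4 LSK groups (x axis), with the group mean as a line; red is Parp-2-/-, blue is WT, filled is irradiated and open is unirradiated. The upper 5 genes had a more positive and the lower 5 a more negative response in Parp-2-/- cells; none of them passed the interaction test at an adjusted p under 0.05.

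A further set of genes was chosen without the interaction. The estimate of the average response is independent of that of the interaction in this balanced design. Both tests use the same spread, so a row with a low estimated spread is more likely to pass both. On average 474 rows (2.06%) rose and 377 (1.64%) fell. Of the 474, 470 had the same sign in both genotypes, and of the 377, 371 did. The interaction was called in 0 of these 851 rows. The average response passed in 190 rows when LSK cells were fitted alone. Among the 474 risers the interaction had an unadjusted p under 0.05 with a larger rise in Parp-2-/- cells in 16 (3.38%) and with a smaller rise in 69 (14.6%), beside 4.4% of all rows in the positive and 5.12% in the negative direction. Their median response was 0.858 in Parp-2-/- and 0.997 in WT cells. Among the 377 falling rows the fall was larger in Parp-2-/- cells in 60 (15.9%) and smaller in 31 (8.22%), with median responses of -0.85 in Parp-2-/- and -0.79 in WT cells. Negative interactions were thus the more frequent ones in both sets. They were also the more frequent ones in the highest of 4 equal classes of rows by mean level, with 526 of 5740 negative and 173 positive. The part of level in these shares was not tested. Of the 190 rows chosen with LSK cells alone, 135 rose, and by the p of the 16-array fit the rise was larger in Parp-2-/- cells in 10 (7.41%) and smaller in 21 (15.6%). The other 55 fell, with a larger fall in Parp-2-/- cells in 10 (18.2%) and a smaller one in 2 (3.64%). By the p of the LSK cells alone the rise was larger in 9 and smaller in 14 of the 135, and the fall larger in 8 and smaller in 2 of the 55. Over all 22961 rows, that p was under 0.05 for 425 positive and 641 negative interactions. For the 474 risers it gave a larger rise in 12 and a smaller one in 46. For the 377 falling rows it gave a larger fall in 38 and a smaller one in 18. The 95% confidence interval of the interaction lay within 1 log2 unit on either side of 0 for 189 of the risers and 147 of the falling rows (120 and 103 with the spread of LSK cells alone). For the others, a change in response by 2-fold or more lay within the interval.

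Of the genes with the largest average rises, Tnip3, an inhibitor of NF-kappaB signalling, read 9.97 and 10.16 in irradiated and 4.84 and 5.64 in unirradiated Parp-2-/- pools, against 9.69 and 10.25 in irradiated and 5.23 and 5.90 in unirradiated WT pools. The pools of the genotypes overlapped in both states, and the interaction was 0.41 with a 95% interval of -0.85 to 1.68. The OX40 ligand gene Tnfsf4 rose by 3.97 in Parp-2-/- and by at least 4.25 in WT cells, whose unirradiated pools lay below the array median, so that the size of its interaction is not measured. Ddias, an inhibitor of apoptosis after DNA damage, had an interaction of 0.78 ± 0.48 and the chemokine gene Cxcl10 one of 0.82 ± 0.80. Of the genes with the largest average falls, the immediate early gene Nr4a1 read 5.02 and 5.31 in irradiated and 8.60 and 7.16 in unirradiated Parp-2-/- pools, against 4.75 and 5.16 in irradiated and 9.39 and 8.39 in unirradiated WT pools. Its interaction of 1.22 ± 0.70 did not pass (adjusted p = 0.623), and Fosb and Nr4a2, also immediate early genes, read -1.22 ± 0.74 and -1.21 ± 0.82. Klf6 read -0.45 ± 0.53 and Rgs2, an inhibitor of G protein signalling, -0.71 ± 0.41.

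**Figure D3:**
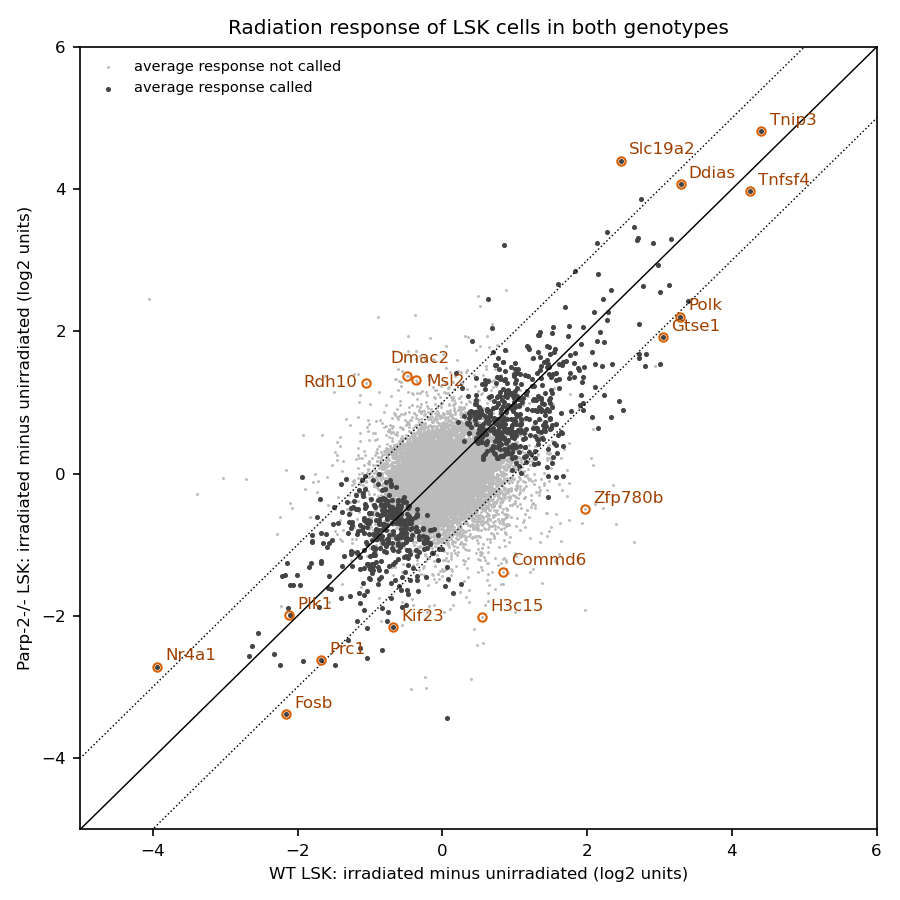
Radiation response of each row in Parp-2-/- LSK cells (y axis) against WT LSK cells (x axis), both in log2 units; dark points passed for the average response, the solid line is equality, and the dotted lines are 1 log2 unit away. Tnip3, Tnfsf4 and Plk1 lie between the dotted lines, Slc19a2 lies above them, and 46 of 474 average risers and 40 of 377 average falling rows differ by more than 1 unit.

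Gene lists were read by their counts and medians, beside those of all rows (median interaction 0.01; 4.4% of rows more positive and 5.12% more negative at an unadjusted p under 0.05). In the fit of LSK cells alone, 425 of all 22961 rows were more positive and 641 more negative at an unadjusted p under 0.05. Members that passed after adjustment numbered 0 in each of the 32 lists. Of the p53 targets of arrest and feedback, 19 of 32 members rose on average with radiation and 0 fell, and their median response was 0.996 in Parp-2-/- and 1.15 in WT cells. Their median interaction was -0.10, with 5 members more negative and 1 more positive at an unadjusted p under 0.05. Fitted with LSK cells alone, 3 were more negative and 0 more positive. Polk, a translesion DNA polymerase, read 8.36 and 8.53 in irradiated and 6.02 and 6.46 in unirradiated Parp-2-/- pools, against 8.63 and 9.14 in irradiated and 5.66 and 5.55 in unirradiated WT pools. It rose in both genotypes, and the WT pools spanned a wider range at both ends, with an interaction of -1.07 ± 0.34 (adjusted p = 0.355). Gtse1, a p53-regulating gene of G2 phase, read 7.75 and 7.65 in irradiated and 6.17 and 5.40 in unirradiated Parp-2-/- pools, against 7.83 and 8.20 in irradiated and 4.77 and 5.16 in unirradiated WT pools (interaction -1.13 ± 0.36, adjusted p = 0.347).

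Ercc5, a nuclease of nucleotide excision repair, and Ei24 had interactions of -1.14 ± 0.41 and -1.04 ± 0.43, while the damage recognition gene Ddb2 read 0.82 ± 0.30 (adjusted p = 0.409, 0.474 and 0.414). The p53 targets of apoptosis had a median interaction of -0.03 over 17 members. The death receptor gene Fas read 0.60 ± 0.51 and Eda2r 0.61 ± 0.66, both after rises in each genotype, and their unirradiated groups lay below the array median. Perp, a p53 effector at the membrane, read 5.33 and 5.01 in irradiated and 5.19 and 5.14 in unirradiated Parp-2-/- pools, against 5.80 and 5.77 in irradiated and 4.98 and 4.91 in unirradiated WT pools. WT states did not overlap and Parp-2-/- states did, but neither the Perp interaction (-0.84 ± 0.32, adjusted p = 0.438) nor the WT response (0.84, adjusted p = 0.09) passed. The list of pro-apoptotic BCL2 family and mitochondrial genes shares Pmaip1, Bbc3, Bid and Bcl2l11 with the p53 targets of apoptosis. Its median interaction was -0.02, and 3 of its 13 measured members were more negative at an unadjusted p under 0.05, against 0 more positive. They were Bad (-0.77 ± 0.29), Bmf (-0.74 ± 0.28) and the cytochrome c gene Cycs (-0.73 ± 0.28), which is not a BCL2 family gene. On 2 further rows Cycs read -0.955 and 0.596. With LSK cells alone, 0 of the 13 members had an unadjusted p under 0.05 in either direction. In the pro-survival list, Naip2, of the inhibitor of apoptosis family, read -0.89 ± 0.29 and Mcl1 -0.48 ± 0.31.

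The lowest list median belonged to mitosis and G2/M, at -0.40 over 35 members, of which 26 lay below 0. At an unadjusted p under 0.05, 8 were more negative and 0 more positive, and 4 and 0 with LSK cells alone. Of the 35 members, 24 fell on average, and the median response was -1.27 in Parp-2-/- and -0.68 in WT cells. The median difference between the genotypes, Parp-2-/- minus WT, was -0.03 in irradiated and 0.23 in unirradiated cells, and in MP cells the median interaction was 0.06. Highly expressed rows had negative interactions in general: the top 1 of 4 equal classes of rows by level, which holds 26 of the 35 members, had a median of -0.12, and its part in the list's median was not tested.

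Kif23, a kinesin of cytokinesis, read 6.39 and 6.89 in irradiated and 8.64 and 8.95 in unirradiated Parp-2-/- pools, against 7.61 and 7.52 in irradiated and 8.22 and 8.28 in unirradiated WT pools. The irradiated Parp-2-/- pools were the lowest and the unirradiated Parp-2-/- pools the highest of the 8. Kif23 fell in Parp-2-/- cells by 2.15 (adjusted p = 0.00018), the WT response was -0.68 (adjusted p = 0.1), and the interaction of -1.47 ± 0.27 did not pass (adjusted p = 0.121; 0.925 in LSK cells alone). In 25 other fits of these arrays it ran from -1.73 to -1.22. Racgap1, its partner in the centralspindlin complex, read 6.12 and 5.57 in irradiated and 8.14 and 6.90 in unirradiated Parp-2-/- pools, against 6.58 and 6.32 in irradiated and 6.59 and 5.82 in unirradiated WT pools. A single unirradiated Parp-2-/- pool stood highest, and the interaction was -1.92 ± 0.52 (adjusted p = 0.276). The spindle checkpoint kinase gene Ttk (-1.22 ± 0.34) and the centromere kinesin gene Cenpe (-1.06 ± 0.39) also did not pass.

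Plk1, the main mitotic kinase, read 4.67 and 4.81 in irradiated and 6.67 and 6.79 in unirradiated Parp-2-/- pools, against 4.42 and 4.95 in irradiated and 6.72 and 6.88 in unirradiated WT pools. The pools of the genotypes overlapped in both states, but both irradiated Parp-2-/- pools lay below the array median, so that the size of the Plk1 interaction is not measured. Prc1, a spindle midzone protein, had an interaction of -0.94 ± 0.49. The promoter windows of 3 members with negative interactions and of Plk1 are shown because the list is defined by a shared programme of transcription: the CHR element, TTTGAA, and the CCAAT box are known elements of G2/M promoters, bound by the DREAM complex and by NF-Y. The sequences are RefSeq windows of assembly GRCm38.p6 around the annotated start of transcription, 5′ to 3′ on the gene's strand, and capitals mark TTTGAA and CCAAT or their reverse complements.
Kif23: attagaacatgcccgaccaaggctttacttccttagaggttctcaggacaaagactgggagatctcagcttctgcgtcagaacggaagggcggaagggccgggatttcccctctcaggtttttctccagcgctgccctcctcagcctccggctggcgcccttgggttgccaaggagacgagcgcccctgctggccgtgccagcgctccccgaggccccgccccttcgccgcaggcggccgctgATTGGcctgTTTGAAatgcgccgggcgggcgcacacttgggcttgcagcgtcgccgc
Racgap1: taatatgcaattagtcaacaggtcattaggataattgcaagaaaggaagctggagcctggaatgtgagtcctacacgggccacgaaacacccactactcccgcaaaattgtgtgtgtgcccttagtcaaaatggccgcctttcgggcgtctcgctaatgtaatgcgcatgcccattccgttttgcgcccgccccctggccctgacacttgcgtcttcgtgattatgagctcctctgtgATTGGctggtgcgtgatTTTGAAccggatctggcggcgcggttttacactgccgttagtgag
Ttk: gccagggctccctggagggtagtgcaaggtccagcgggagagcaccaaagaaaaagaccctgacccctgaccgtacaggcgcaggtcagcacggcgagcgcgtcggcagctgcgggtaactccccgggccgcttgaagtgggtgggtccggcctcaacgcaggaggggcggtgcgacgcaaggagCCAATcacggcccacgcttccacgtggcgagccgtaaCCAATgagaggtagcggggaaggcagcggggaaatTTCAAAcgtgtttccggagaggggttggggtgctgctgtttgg
Plk1: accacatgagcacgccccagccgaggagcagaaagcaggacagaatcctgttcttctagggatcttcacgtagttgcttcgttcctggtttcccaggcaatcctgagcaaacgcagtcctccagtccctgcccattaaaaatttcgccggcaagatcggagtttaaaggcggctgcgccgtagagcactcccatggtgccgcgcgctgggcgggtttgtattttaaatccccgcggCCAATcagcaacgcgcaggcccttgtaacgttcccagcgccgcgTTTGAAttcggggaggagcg
These windows lie at chr9:61946750-61947049 on the minus strand, chr15:99651607-99651906 on the minus strand, chr9:83834439-83834738 on the plus strand and chr7:122159185-122159484 on the plus strand. Searched on both strands, TTTGAA was in 23 of the 31 windows of the mitotic list (74.19%), which cover 29 of its 35 genes, and in 17.89% of all 32851 windows. CCAAT was in 83.87% and 37.41%, and both were in 70.97% of the list's windows and 6.95% of all windows. The windows of Kif23, Racgap1, Ttk and Plk1 each hold both motifs. The list is defined by this programme and these are its known elements. The shares therefore describe the list and test nothing about the interaction.

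**Figure D4:**
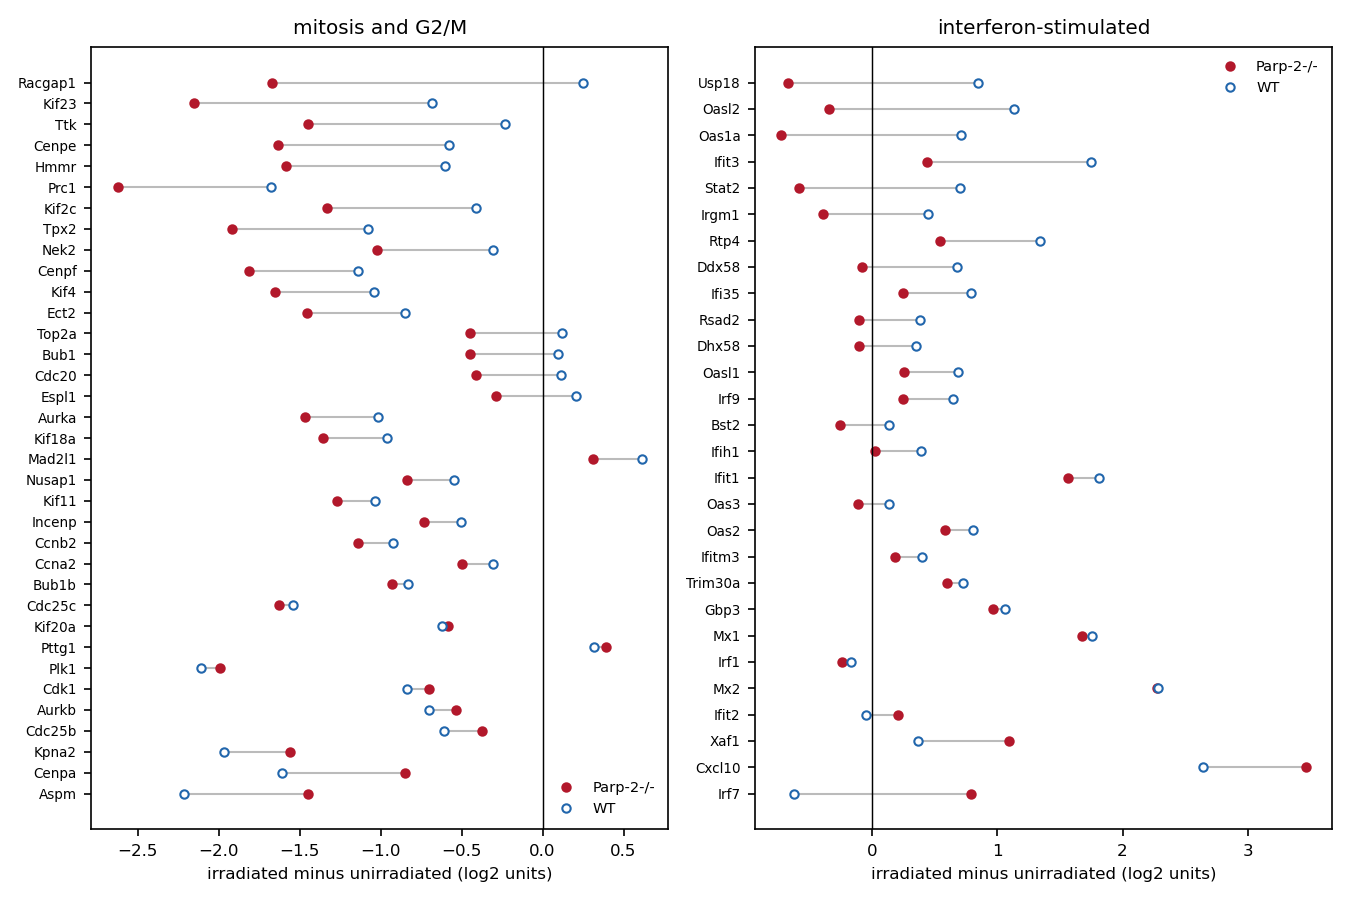
Radiation response (x axis, log2 units) of each member (y axis) of the mitosis and G2/M list and of the interferon-stimulated list in Parp-2-/- (red, filled) and WT (blue, open) LSK cells, ordered by the interaction. The red point lies left of the blue one for 26 of 35 mitotic and 24 of 28 interferon genes; no member passed the interaction test.

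DNA replication and S phase genes had a median interaction of -0.33 over 39 members, of which 29 lay below 0. At an unadjusted p under 0.05, 7 were more negative and 1 more positive, and 3 and 1 with LSK cells alone. On average with radiation, 0 of the 39 changed. Pole2, a subunit of DNA polymerase epsilon, read 5.78 and 6.42 in irradiated and 7.32 and 7.04 in unirradiated Parp-2-/- pools, against 6.61 and 7.02 in irradiated and 6.27 and 6.68 in unirradiated WT pools. The unirradiated Parp-2-/- pools were the highest of the 8 and the WT states overlapped, with an interaction of -1.42 ± 0.34 (adjusted p = 0.203). The catalytic subunit gene Pole (-0.96 ± 0.37) and Rrm1 (-0.92 ± 0.29), of ribonucleotide reductase, read in the same direction. Rfc5, of the clamp loader, read 1.55 ± 0.56 in the opposite one. For the whole list the median genotype difference was -0.02 in irradiated and 0.38 in unirradiated cells, and 33 of its 39 members were in the top class by level. The DNA damage sensing and checkpoint kinase list had a median of -0.32 over 18 members, of which 12 were in the top class by level. At an unadjusted p under 0.05, 4 were more negative and 0 more positive. They were the checkpoint kinase gene Chek1 (-0.86 ± 0.37), the mitotic inhibitor gene Wee1 (-0.90 ± 0.32), the clamp gene Rad9a (-1.07 ± 0.46, a lower bound of the size) and the break sensor gene Mre11a (-0.76 ± 0.34). Their adjusted p-values were 0.397 to 0.507, and with LSK cells alone 0 of the 18 members had an unadjusted p under 0.05.

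Interferon-stimulated genes had a median interaction of -0.38 over 28 members, with 24 below 0. Their median response was 0.22 in Parp-2-/- and 0.69 in WT cells, and 8 rose on average. At an unadjusted p under 0.05, 6 were more negative and 1 more positive, and 4 and 1 with LSK cells alone. Usp18, the protease that removes ISG15, read 5.96 and 4.98 in irradiated and 6.17 and 6.12 in unirradiated Parp-2-/- pools, against 6.31 and 6.58 in irradiated and 5.65 and 5.56 in unirradiated WT pools. Irradiated pools were lower than unirradiated ones in Parp-2-/- and higher in WT cells, and the interaction was -1.52 ± 0.35 (adjusted p = 0.194). In 25 other fits of these arrays it ran from -2.01 to -1.03. The antiviral oligoadenylate synthetase family genes Oasl2 (-1.48 ± 0.55) and Oas1a (-1.44 ± 0.45) read in the same direction. Irf7, the regulator of interferon production, went the other way: it read 5.67 and 6.25 in irradiated and 5.27 and 5.06 in unirradiated Parp-2-/- pools, against 5.45 and 5.43 in irradiated and 6.18 and 5.96 in unirradiated WT pools. Its interaction was 1.42 ± 0.35 (adjusted p = 0.212). The NF-kappaB and inflammatory list had the highest list median, 0.19 over 28 members, with 2 more positive and 1 more negative at an unadjusted p under 0.05. The chemokine genes Cxcl2 and Ccl5 read 1.19 ± 1.12 and -1.01 ± 0.31, and their adjusted p-values were 0.791 and 0.347.

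Repair lists include the pathways in which Parp-2 acts. Base excision and single-strand break repair had a median of 0.14 over 20 members, with 2 more positive and 1 more negative at an unadjusted p under 0.05. Among these were the glycosylase genes Ogg1 (0.89 ± 0.27) and Nthl1 (-0.91 ± 0.28). The gap-filling polymerase gene Polb read 1.04 ± 0.48 and Neil3 read -1.004 ± 0.51, with unadjusted p-values of 0.052 and 0.071. Homologous recombination and Fanconi genes had a median of -0.16 over 25 members. Rad54b, a recombination motor protein, read 6.22 and 6.21 in irradiated and 6.79 and 6.70 in unirradiated Parp-2-/- pools, against 6.14 and 6.47 in irradiated and 5.78 and 5.65 in unirradiated WT pools. The states were in opposite order in the genotypes, with an interaction of -1.12 ± 0.23 (adjusted p = 0.155; 0.969 in LSK cells alone). The helicase gene Brip1 read -0.87 ± 0.31 and the nuclease gene Exo1 0.99 ± 0.43.

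End joining genes had a median of -0.21 over 12 members, with 3 more negative and 0 more positive at an unadjusted p under 0.05. Fitted with LSK cells alone, 2 were more negative and 0 more positive. Polq, the polymerase of alternative end joining, read 6.35 and 6.11 in irradiated and 6.34 and 6.39 in unirradiated Parp-2-/- pools, against 6.45 and 6.48 in irradiated and 5.75 and 5.60 in unirradiated WT pools. It rose in WT cells by 0.79 (adjusted p = 0.048), the Parp-2-/- response was -0.14 (adjusted p = 0.88), and the interaction of -0.93 ± 0.25 did not pass (adjusted p = 0.276). Prkdc, the DNA-dependent protein kinase, and Aplf, which binds ADP-ribose chains, read -0.72 ± 0.31 and -0.74 ± 0.24. In the PARP family list, with a median of -0.19 over 17 members, Parp6 read 6.77 and 6.80 in irradiated and 7.23 and 6.93 in unirradiated Parp-2-/- pools, against 7.66 and 7.70 in irradiated and 7.14 and 6.81 in unirradiated WT pools. The irradiated WT pools were the highest and the irradiated Parp-2-/- pools the lowest of the 8, and the interaction was -0.997 ± 0.23 (adjusted p = 0.189). Parp3, a further break-activated member, read -0.52 ± 0.20. Of 15 measured neighbours of Parp2 on chromosome 14, 2 were more negative at an unadjusted p under 0.05: Rpgrip1 (-0.85 ± 0.23) and the RNA methylase gene Mettl3 (-0.66 ± 0.28). With LSK cells alone 1 of the 15 was.

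**Figure D5:**
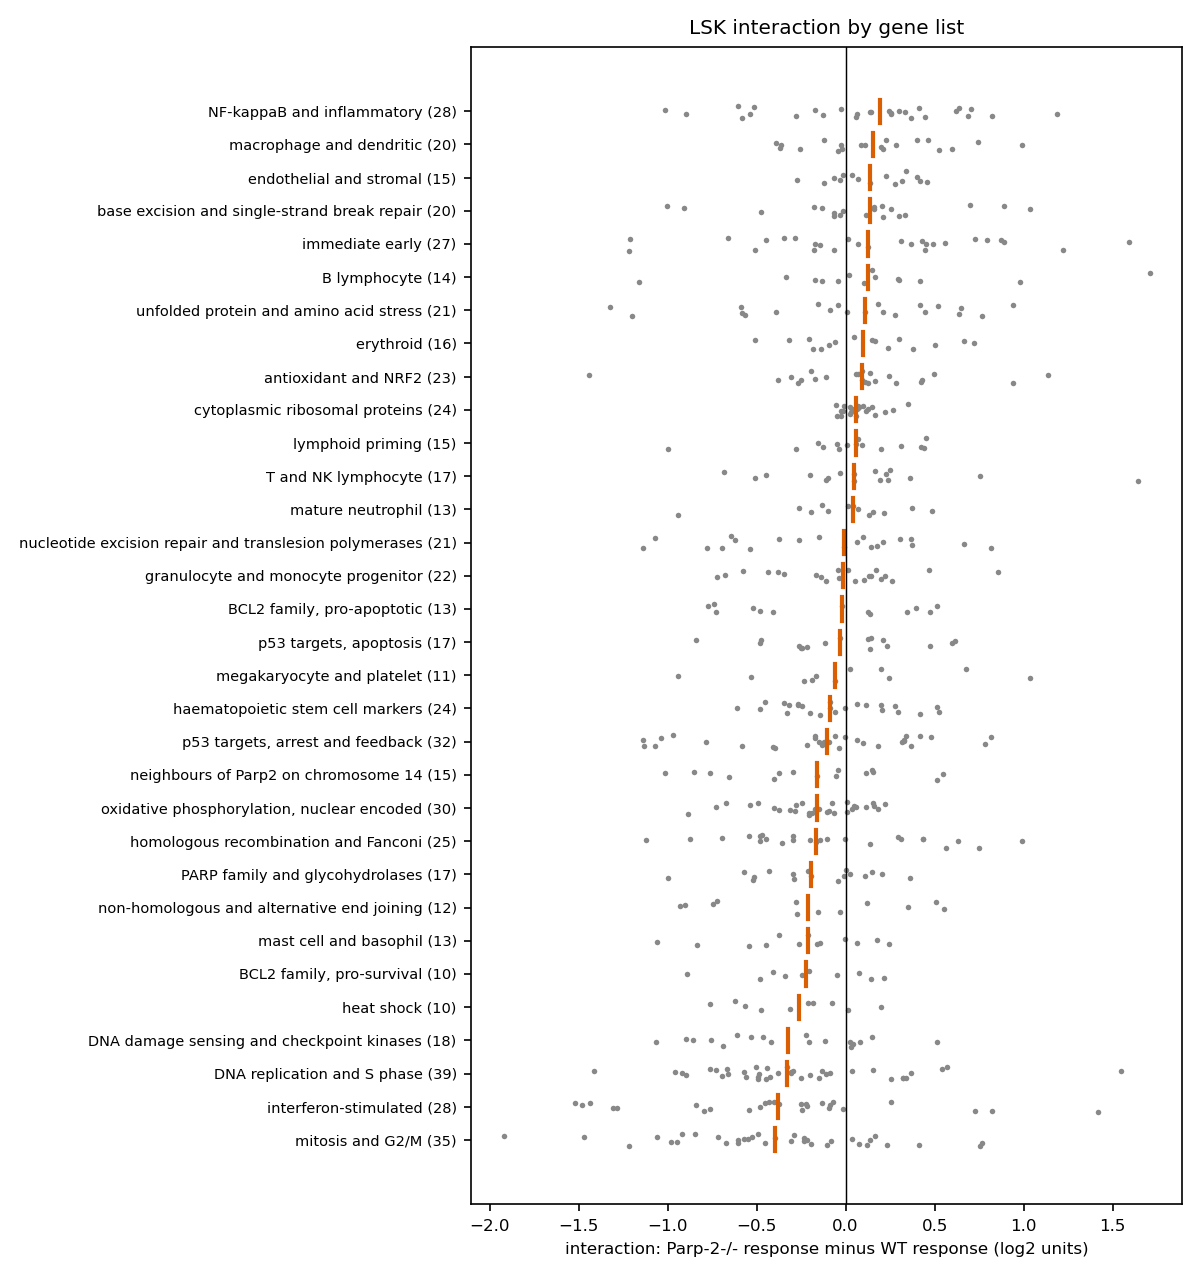
Interaction (x axis, Parp-2-/- response minus WT response, log2 units) of each measured member (grey points) of the 32 gene lists (y axis, number measured in brackets), with the list median as an orange bar. Medians ran from -0.40 for mitosis and G2/M to 0.19 for NF-kappaB and inflammatory genes, while members of single lists ran from -1.92 to 0.77 for mitosis and G2/M and from -0.05 to 0.35 for cytoplasmic ribosomal proteins.

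Among stress lists, the unfolded protein and amino acid stress genes had a median of 0.11 over 21 members, with 2 more positive and 2 more negative at an unadjusted p under 0.05. Vldlr, a lipoprotein receptor, read 4.97 and 5.10 in irradiated and 6.59 and 6.79 in unirradiated Parp-2-/- pools, against 6.35 and 5.72 in irradiated and 6.48 and 6.26 in unirradiated WT pools. The irradiated Parp-2-/- pools were the lowest of the 8, and its interaction was -1.32 ± 0.36 (adjusted p = 0.272). The chaperone gene Dnajb9 read -1.20 ± 0.45, and Ppp1r15a, a phosphatase subunit of the stress response, 0.77 ± 0.34. The NRF2 list had a median of 0.09 over 23 members, of which 15 lay above 0, with 0 more positive and 1 more negative at an unadjusted p under 0.05. That one was Gclm, an enzyme subunit of glutathione synthesis (-1.44 ± 0.55), while the oxidase gene Cybb read 1.14 ± 0.67 and the glutathione reductase gene Gsr 0.94 ± 0.53. Heat shock genes had a median of -0.26 over 10 members, including Hsph1 (-0.76 ± 0.23). Nuclear-encoded genes of oxidative phosphorylation had a median of -0.16 over 30 members, of which 29 were in the top class by level (median -0.12). At an unadjusted p under 0.05, 4 were more negative and 0 more positive, led by Ndufa5 of complex I (-0.88 ± 0.30). The 4 include the Cycs row named above, and with LSK cells alone 2 members were more negative and 0 more positive. The 24 measured cytoplasmic ribosomal protein genes stayed between -0.05 and 0.35.

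Marker lists were read for genes of single cell types, and whether the makeup of the sorted cells changed was not tested. In bulk samples, fewer cells of a type and less RNA per cell cannot be told apart. The 24 stem cell markers had a median interaction of -0.09, with 0 members at an unadjusted p under 0.05 in either direction, and their mean level was 6.36 to 6.51 in irradiated and 6.63 to 6.72 in unirradiated Parp-2-/- pools, against 6.42 to 6.58 in irradiated and 6.67 to 6.73 in unirradiated WT pools. Median interactions were 0.06 for lymphoid priming genes, -0.01 for granulocyte and monocyte progenitor genes and 0.10 for erythroid genes. The mast cell and basophil list, at -0.21 over 13 members, had a mean level of 4.15 to 4.27 in irradiated and 4.05 to 4.31 in unirradiated Parp-2-/- pools, against 4.53 to 4.60 in irradiated and 4.22 to 4.30 in unirradiated WT pools. All those list means lie under the array medians, and only the irradiated WT pools stood apart. Single members were higher: the basophil gene Mcpt8 was above the array median in all 4 groups. It read 6.36 and 5.40 in irradiated and 5.40 and 5.29 in unirradiated Parp-2-/- pools, against 6.59 and 7.69 in irradiated and 5.65 and 5.44 in unirradiated WT pools. Its interaction of -1.06 ± 0.50 did not pass (adjusted p = 0.531). At an unadjusted p under 0.05, 3 of 20 macrophage and dendritic markers, 2 of 17 T and NK markers, 1 of 11 megakaryocyte and platelet markers and 1 of 15 endothelial and stromal markers were more positive, with 0 more negative in each of these lists. One of 13 mast cell and basophil markers and 1 of 15 lymphoid priming genes were more negative, with 0 more positive. The platelet genes Gp9 and Gp5 read 1.03 ± 0.26 and -0.94 ± 0.53 (unadjusted p = 0.0019 and 0.099). Their list had a median of -0.06, with 6 of 11 members below 0. Thy1 of T cells and early progenitors read 1.64 ± 0.55 and H2-Ab1 of antigen presentation 0.99 ± 0.39, in lists with medians of 0.05 and 0.15, and C1qb of macrophages read 0.74 ± 0.21, a lower bound. The others with such a p, Siglech, Klrb1c and Cxcl12 on the positive side and Cma1 and Il7r on the negative one, lay below the array median in all 4 groups, so that their sizes are not measured. By the p of LSK cells alone, 1 megakaryocyte and platelet marker was more positive and 1 more negative. In that fit 1 macrophage and dendritic and 1 T and NK marker were more positive, with 0 more negative. The endothelial and stromal and the mast cell and basophil lists had 0 in either direction. Mean levels of the T and NK list, 4.42 to 4.78, were under the array medians in all 4 groups. The part of these markers in the interactions above was not tested.

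In MP cells the same contrast gave 0 called rows and 199 at an unadjusted p under 0.05, and 0 called rows and 708 in MP cells fitted alone. The difference between the LSK and MP interactions was called in 0 rows (928 at an unadjusted p under 0.05, lowest adjusted p 0.554). Dmac2 read -0.28 ± 0.25 in MP cells and differed from LSK cells by 2.15 ± 0.36 (adjusted p = 0.554). Slc19a2 read -0.03 ± 0.33, Commd6 -0.29 ± 0.31 and Kif23 -0.04 ± 0.27 in MP cells, with adjusted p = 1 for each difference between the cell types. The rows chosen for a more positive LSK response in Parp-2-/- cells had a median MP interaction of 0.03 and those chosen for a more negative one -0.07. No interaction is therefore shown to be particular to LSK cells.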

How the data were processed

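Messenger RNA was measured on 16 arrays, 8 of LSK cells and 8 of MP cells, in 8 groups of 2 pools. The authors deposited log2 intensities per transcript cluster. RMA (robust multi-array average), limma, affy 2.10 and R 2.15 are named in the submitters' processing notes, which do not say what each was used for. Neither the log base nor which arrays were normalised with each other is given in the sources used here, and log2 was taken from the range of the values. Precision is limited by the number of arrays.

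The values were used as deposited. Of 34760 rows, 21640 carry 1 gene symbol, 1321 carry several and 11799 carry none, and the 22961 with a symbol were tested. Entrez identifiers matched the RefSeq table of GRCm38.p6 for 21553 rows, and 0 symbols were updated. Gene coordinates other than promoter windows are not given. limma 3.58.1 under R 4.3.3 fitted 8 group means over the 16 arrays with moderated variances (8 residual and 4.35 prior degrees of freedom; 4 and 4.15 in LSK cells alone). Tests were two-sided, with Benjamini-Hochberg adjustment over all tested rows, and rows under 0.05 after adjustment were called. The procedure was tested on simulated data that had the same spread in LSK and MP cells. That test therefore does not cover the larger spread of the LSK pools. A group below the array median on both arrays gives only a bound.

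Named genes are Parp2 and Parp1, the 10 smallest p in each direction with separate pool-by-pool responses where fewer than 10 were called, the 10 largest average rises and falls, and up to 4 members per list with the largest interaction. Sort markers were named as such. Predicted genes, small RNA genes and receptor families were skipped, and not every gene taken is printed. The 32 lists hold 704 entries, of which 646 were measured, and a gene with several rows is shown by the one with the highest mean level. The comparison, the lists and the naming rule were chosen with earlier results of these data known, so none of them is independent evidence.

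Pool numbers did not pair the samples: between LSK groups the correlations of same-numbered deviations were -0.08 to 0.05 over 6 pairs. Other fits used LSK arrays alone, further quantile normalisation, a filter on dim rows, all rows, other variance moderation, array weights, a replicate block and each array left out.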

Additional observations from a re-analysis of the deposited data

Results flagged for a closer look

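The radiation response differed between genotypes, by the interaction test itself, in 2 rows. Olfr652 had an interaction of 1.87 ± 0.23 (adjusted p = 0.0467), with a response of 1.38 in Parp-2-/- and -0.49 in WT LSK cells. It lay below the array median in 3 of the 4 groups, and in MP cells its interaction was 0.07 ± 0.23. The row with 3 gene symbols had an interaction of 1.79 ± 0.23 (adjusted p = 0.0467), with a response of 0.76 in Parp-2-/- cells (adjusted p = 0.041) and -1.03 in WT cells (adjusted p = 0.0075), and all 4 LSK groups were above the array median. Both had an adjusted p of 0.736 when LSK cells were fitted alone. The groups hold 2 pools each, too few to test for a single outlying array.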

How the results depend on the processing

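The LSK interaction was called in 2 rows. It was called in 0 rows with the 8 LSK arrays alone, with these arrays quantile-normalised and fitted alone, with array weights and with the replicate block, in 1 with a mean-variance trend, in 4 among rows at or above the array median, and in 6 after further quantile normalisation of the 16 arrays. With all rows of the table it was called in 2 rows, but in 0 of the same ones. Leaving out 1 LSK array gave 0 to 95 calls, and 0 with LSK arrays alone, an alternative chosen after seeing the data. Members of the gene lists were called 0 times, and 0 or 1 times when an array was left out. The average response was called in 851 rows, in 190 with LSK arrays alone, in 648 to 935 with an array left out, and in 69, 84, 103, 105, 115, 134, 138 and 140 with each of the 8 arrays left out of LSK cells alone. The difference between LSK and MP interactions was called in 0 rows, and in 0 to 5 with an array left out. Where an array left a group with 1 pool, that pool was assumed to vary like the other groups.

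The replicate block changed the LSK interaction from 2 calls to 0 and no other count by over 1.5 times. The signs of 4 uncalled interactions turned. Parp2 read 0.021 after quantile normalisation of the 16 arrays, 0.00061 after that of the LSK arrays alone, and -0.41 to 0.32 in fits that left out an array (0.014, 0.022, 0.27 and 0.32 where its sign turned). In such fits Tnfsf4 read -0.81 to 0.25 (0.097 and 0.25 where it turned), Eda2r -0.10 to 1.33 and Plk1 -0.14 to 0.38. The medians of the mitosis (-0.52 to -0.18), replication (-0.44 to -0.25) and interferon (-0.48 to -0.26) lists kept their sign in all 26 alternatives. So did those of other lists, among them cytoplasmic ribosomal proteins (0.003 to 0.10) and stem cell markers (-0.20 to -0.005). The median of p53 arrest targets (-0.22 to 0.08) did not. All alternatives use the same arrays, so a kept sign is not independent evidence. The cause of these changes was not tested. With 2 pools a group, the median distance from the estimate to the limit of the 95% interval of an interaction among average risers was 0.709 log2 units, and 0.857 with LSK arrays alone.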

Other observations

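Zinc finger genes recurred among the most negative interactions, and the set was chosen after the values were seen. Of 361 rows whose symbol is Zfp with a number, 36 (9.97%) had a more negative and 13 (3.60%) a more positive response in Parp-2-/- LSK cells at an unadjusted p under 0.05, beside 5.12% and 4.4% of all rows. All 4 pool-by-pool Parp-2-/- responses lay below all 4 WT responses in 38 (10.5%) and above them in 26 (7.20%), beside 7.57% and 8.81% of all rows. Their median interaction was -0.08 in LSK cells and -0.03 in MP cells.

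The interaction varied with the level of a row. In 4 equal classes of rows from the lowest to the highest mean level, its median was 0.01, 0.10, 0.02 and -0.12, and 0.04, 0.06, 0.04 and -0.07 after further quantile normalisation. At an unadjusted p under 0.05, 173 rows of the highest class had a more positive and 526 a more negative response in Parp-2-/- cells, while in the second class 336 were more positive and 142 more negative.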
